A study of Mus musculus with 7 samples.

Results

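The FoxO transcription factor genes Foxo3 and Foxo4, the hypoxia-inducible factor gene Hif3a and the JNK scaffold gene Mapk8ip1 were followed across 7 mouse astrocyte arrays. They are 4 of 1592 genes with a name at hand and 4 of 22195 features measured. The names came from the authors' deposited fold table, in which a probe set carries a gene symbol and each of the 4 genes has 1 probe set. That table lists only differences of at least 1.4-fold, and the 4 genes were selected from it with their levels in the 3 groups already known. The array values below therefore describe the genes, and tests are reported only as counts over all features or over pathway lists.

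The arrays, 1 per animal, form 3 groups. CETP transgenic mice of the strain B6.CBA-Tg(CETP)5203Tall/J received a diet with 1% cholesterol for 2 months, up to the age of 4 months (n = 3, replicates 1, 2 and 3). Other mice labelled CETP transgenic carry a standard-diet label (n = 2, replicates 4 and 5), and wild-type mice, whose strain the labels do not name, ate standard food (n = 2, replicates 2 and 3). CETP, cholesteryl ester transfer protein, is a human plasma protein that mice lack, and per the series' design text dietary cholesterol induces the transgene. The growth protocol describes only the cholesterol diet for transgenic animals, so the diet of replicates 4 and 5 rests on their own label. No feature was named CETP here, and the transgene was not analysed. Astrocytes came from whole brain by magnetic selection with a stated purity above 70%, and precision is limited by how few arrays there are.

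FoxO factors switch on genes of stress resistance, cell cycle arrest, autophagy and gluconeogenesis. Insulin and growth factors act through the kinase Akt, which phosphorylates them and keeps them out of the nucleus, and stress kinases including JNK can move them back. Hypoxia-inducible factors pair an oxygen-regulated alpha subunit with ARNT. HIF3A is the least studied alpha subunit, and its short mouse form binds other alpha subunits and blocks their action. The product of Mapk8ip1, also called JIP1, holds JNK together with its upstream kinases and links cargo, including the amyloid precursor protein, to the kinesin motor.

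Promoters, the windows from 250 bases before to 50 after the gene start, were at hand for Foxo3 and Hif3a. For Foxo4 and Mapk8ip1 none was at hand. The windows shown come from RefSeq, assembly GRCm38.p6, and are written 5′ to 3′ on the minus strand, with CG pairs in capitals. Foxo3 lies at chr10:42276646-42276945 and Hif3a at chr7:17062378-17062677.
Foxo3: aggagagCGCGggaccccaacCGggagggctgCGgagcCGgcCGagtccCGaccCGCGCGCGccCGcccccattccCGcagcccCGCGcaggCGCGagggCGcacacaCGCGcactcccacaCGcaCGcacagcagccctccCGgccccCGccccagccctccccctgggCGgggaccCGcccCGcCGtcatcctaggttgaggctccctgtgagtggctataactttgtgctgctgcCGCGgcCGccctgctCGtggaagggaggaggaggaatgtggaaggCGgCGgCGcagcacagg
Hif3a: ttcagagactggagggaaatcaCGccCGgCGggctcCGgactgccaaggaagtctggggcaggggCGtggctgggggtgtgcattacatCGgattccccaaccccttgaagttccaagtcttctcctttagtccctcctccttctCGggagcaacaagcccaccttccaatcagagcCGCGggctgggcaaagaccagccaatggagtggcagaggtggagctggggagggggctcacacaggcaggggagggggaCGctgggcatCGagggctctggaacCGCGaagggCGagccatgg
The Foxo3 window held 35 CG pairs and was 75.0% G or C, and 6.95% of 32851 mouse promoter windows held as many CG pairs. The Hif3a window held 14 CG pairs at 63.7% G or C. Both lay above the median window, which held 7 CG pairs at 52.7%. On either strand, neither window held the FoxO motif TGTTTAC (3.65% of all windows do) or the AP-1 motif TGANTCA (7.81%). Neither held ACGTG, a form of the hypoxia response core found in 19.6% of windows. The other form of that core, GCGTG, was not part of the search. The letters printed above do hold it, as GCGTG in Hif3a and as its reverse complement CACGC in Foxo3. Its share over all windows was not counted. Hif3a alone of the pair held CCAAT, a box found in 37.4% of windows, at positions -84 to -80 and again at -52 to -48 from the start. Such matches describe letters and say nothing about binding.

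All values are log2 probe set values, set against each array's own negative control median, 7.48 to 7.69. That level lay close to the median of all features, 7.51 to 7.59. What the negative control probes target was not at hand, so their median is only a rough mark of background. Foxo3 measured 7.85, 7.55 and 7.62 on the cholesterol arrays, 7.41 and 6.80 on the CETP standard-diet arrays, and 6.27 and 6.47 on the wild-type arrays. Every cholesterol array was above every CETP standard-diet array, and these were above both wild-type arrays. Only cholesterol replicates 1 and 3 exceeded their negative control median, by 0.31 and 0.07. Foxo3 encodes the FoxO factor best known for neural stem cell quiescence and autophagy. Its values lie where signal and background cannot be separated, so the size of its differences is uncertain.

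Foxo4 measured 7.44, 6.44 and 7.003 on the cholesterol arrays, 6.66 and 6.21 on the CETP standard-diet arrays, and 5.61 and 4.88 on the wild-type arrays. All 5 CETP arrays were above both wild-type arrays, while the CETP groups overlapped. On every one of the 7 arrays Foxo4 was under the negative control median, with distances from -0.09 on cholesterol replicate 1 to -2.80 on wild-type replicate 3. Between 7.76% and 48.1% of the 5222 negative controls lay below it. A level of this kind shows no expression by itself. The log2 differences of both FoxO genes below are fitted to values near or under the negative control median, and their size is uncertain.

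Hif3a measured 9.65, 8.88 and 9.76 on the cholesterol arrays, 8.23 and 8.70 on the CETP standard-diet arrays, and 7.87 and 8.14 on the wild-type arrays. The groups kept the same order as for Foxo3 with no overlap, although the lowest CETP standard-diet array was only 0.09 above the highest wild-type array. Hif3a exceeded the control median on each of the 7 arrays, on average by 1.85 on cholesterol, 0.89 on the CETP standard-diet label and 0.42 in wild type. Its 2 highest arrays lay above 81.2% and 81.8% of the negative controls, whose upper tail is wide. The wild-type arrays lay above only 56.95% and 57.91% of them. The wild-type side of the Hif3a differences is thus also near the control median.

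Mapk8ip1 measured 13.11, 12.33 and 13.04 on the cholesterol arrays, 12.29 and 12.58 on the CETP standard-diet arrays, and 11.62 and 11.37 on the wild-type arrays. The wild-type arrays were lowest without overlap, and the CETP groups overlapped each other. Its array values stood 3.68 to 5.58 above the negative control median and above 91.6% to 97.5% of the negative controls. Of the 4 genes it is the one whose signal was far from the control median on every array.

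**Figure D1:**
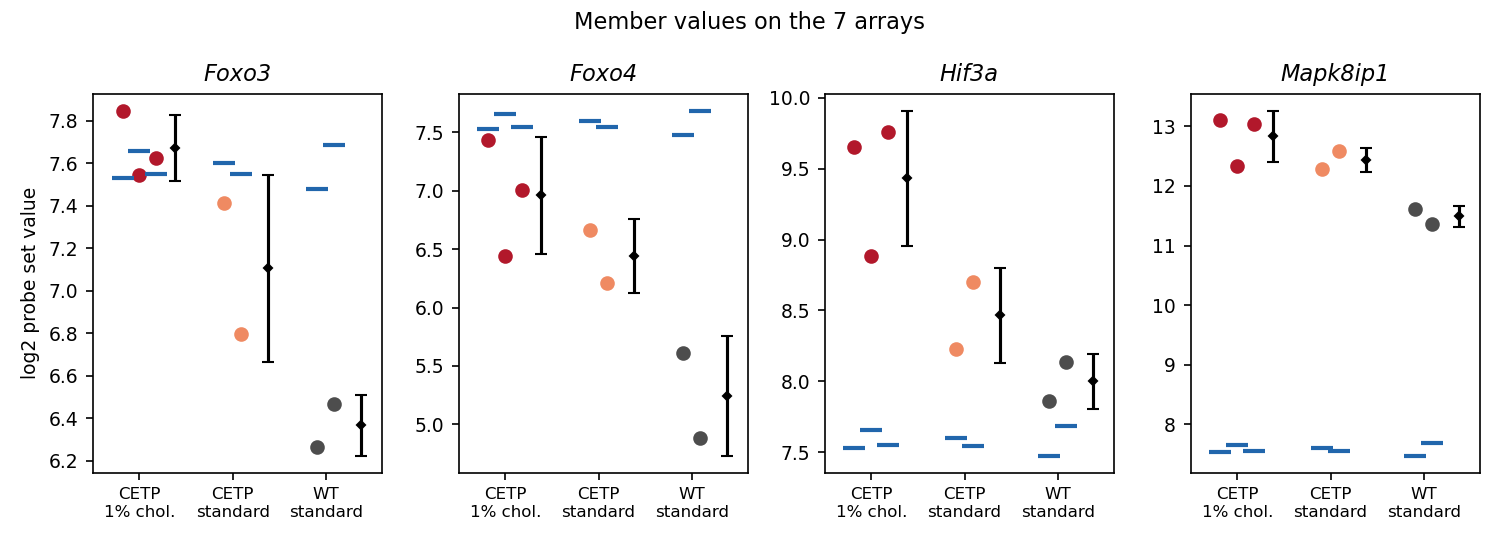
Log2 probe set values (y axis, a separate scale for each gene) of Foxo3, Foxo4, Hif3a and Mapk8ip1 on the 3 CETP cholesterol-diet, 2 CETP standard-diet and 2 wild-type arrays (circles), with group mean ± SD (diamonds) and each array's negative control median (blue bars). All 5 CETP circles are above both wild-type circles in every panel, and Foxo4 is under the blue bars throughout.

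CETP mice on cholesterol were first set against wild-type mice, the comparison named in the design text, in which genotype and diet change together. Hif3a averaged 9.43 ± 0.48 (SD, n = 3) on cholesterol, against a wild-type mean of 8.002 ± 0.19 (SD, n = 2), a log2 difference of 1.43 ± 0.29 (SE of the limma fit), or 2.69-fold. Mapk8ip1 averaged 12.83 ± 0.43 (SD, n = 3) and 11.49 ± 0.18 (SD, n = 2) in the same order, a log2 difference of 1.34 ± 0.27 (SE), or 2.53-fold. The log2 difference was 1.30 ± 0.24 for Foxo3, with group means of 7.67 ± 0.16 (SD, n = 3) on cholesterol, against 6.37 ± 0.14 (SD, n = 2) in wild type. For Foxo4 it was 1.72 ± 0.33, with means of 6.96 ± 0.50 (SD, n = 3) and 5.25 ± 0.51 (SD, n = 2).

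In that comparison 4 of 4 genes were higher with no overlap, as were 9.97% of all features, and 4 of 4 differed by at least 1 on the log2 scale, as did 0.509% of features on the higher side. These values took part in choosing the genes, so nothing is read from the counts. By limma with Benjamini-Hochberg adjustment, 0.0% of 22195 features passed an adjusted p of 0.05, while 1926 features had an unadjusted p under 0.05. The median log2 difference of all features was -0.05.

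The CETP standard-diet group against wild type holds the diet label equal. Foxo4 differed by 1.19 ± 0.36 on the log2 scale (6.44 ± 0.32 and 5.25 ± 0.51, SD, n = 2 each), and Mapk8ip1 by 0.94 ± 0.30 (12.43 ± 0.20 and 11.49 ± 0.18, SD, n = 2 each). Foxo3 differed by 0.74 ± 0.26 (7.10 ± 0.44 and 6.37 ± 0.14, SD, n = 2 each). Hif3a differed by 0.46 ± 0.32 (8.47 ± 0.33 and 8.002 ± 0.19, SD, n = 2 each), which is 1.38-fold. All 4 were higher with no overlap, against 12.1% of all features, and 1 of 4, Foxo4, differed by at least 1, against 0.739%. By limma 0.0% of features passed, with 1175 features at an unadjusted p under 0.05. The Foxo3 difference was 0.43 without CETP standard-diet replicate 4, and that of Hif3a was 0.23 without replicate 5 and 0.70 without replicate 4. Both comparisons with wild type share the same 2 wild-type arrays.

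Between the CETP groups, cholesterol against the standard-diet label, Hif3a had a log2 difference of 0.96 ± 0.29 (SE), or 1.95-fold. The difference was 0.57 ± 0.24 for Foxo3, 0.52 ± 0.33 for Foxo4 and 0.39 ± 0.27 (1.31-fold) for Mapk8ip1. For Foxo3 and Hif3a the arrays did not overlap, which makes 2 of 4 against 9.91% of features, while those of Foxo4 and Mapk8ip1 did, and 0 of 4 reached a difference of 1, against 0.0676%. By limma 0.0% of features passed, with 676 features at an unadjusted p under 0.05. In the authors' deposited table, which does not name its groups, the 4 signed folds are -2.35 for Hif3a, -1.56 for Mapk8ip1, -1.45 for Foxo4 and -1.44 for Foxo3, the last 2 just inside its limit of 1.4. The Foxo3 difference was 0.26 without CETP standard-diet replicate 5 and 0.88 without replicate 4. That of Foxo4 was 0.28 without cholesterol replicate 1 and 0.30 without CETP standard-diet replicate 5, and that of Mapk8ip1 was 0.25 without either cholesterol replicate 1 or CETP standard-diet replicate 4 and 0.64 without cholesterol replicate 2.

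**Figure D2:**
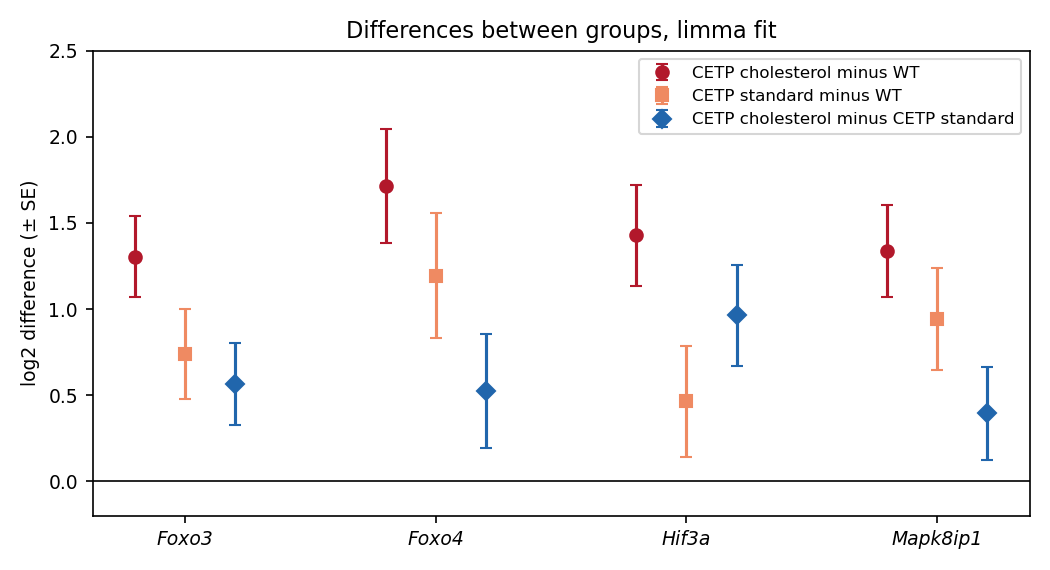
Log2 differences (y axis, points) with the SE of the limma fit (bars) for the 4 genes (x axis) in the 3 comparisons of groups. For the 2 genes above the control median on all arrays, the differences from wild type are 1.43 on cholesterol and 0.46 on the standard-diet label for Hif3a, and 1.34 and 0.94 for Mapk8ip1.

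Placed in order, the 3 group means ran from cholesterol over the CETP standard-diet label down to wild type in all 4 genes, as they did in 16.3% of all features. The 5 CETP arrays were all above both wild-type arrays in 4 of 4 genes and in 5.11% of features. Complete separation of the 3 groups in that order was met by Foxo3 and Hif3a and by 0.662% of features. Named genes are a selected set, and among the 681 with a higher mean on cholesterol than on CETP standard-diet arrays the 3 shares were 32.5%, 7.34% and 2.79%. Neighbouring groups in this order were not always apart. For Foxo4 and Mapk8ip1 the CETP groups differed by about the SD of the cholesterol arrays (0.50 and 0.43), and their arrays overlapped.

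Among the cholesterol arrays, replicate 2 was lowest for each of the 4 genes. It also had the lowest median over all features, 7.52 against 7.55 and 7.54 for replicates 1 and 3. Among genes described below, Sox9 and Elk1 were lowest on it too, while Usp7 and Hif1a were highest on it. The share of all features lowest on replicate 2 was not counted, so how common the pattern is over all features is not known. The CETP standard-diet pair split by gene: replicate 4 was higher than replicate 5 for Foxo3 and Foxo4, and lower for Hif3a and Mapk8ip1. The average distance between the patterns of 2 genes, after each gene's own mean was subtracted, was smallest for Foxo4 and Mapk8ip1 (0.24 log2 units per array over 7 arrays) and largest for Foxo4 and Hif3a (0.35).

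By the same measure the named genes nearest to each of the 4 were looked up among about 1030 whose median value was above the control level. For Foxo3 these were Samd4b (0.15), Abhd17a (0.17) and Man2b2 (0.20), and the median distance of all ranked genes was 0.64. Samd4b, which encodes an RNA-binding protein, measured 9.33, 8.83 and 9.28 on cholesterol, 8.89 and 8.58 on the CETP standard-diet label, and 8.01 and 8.19 in wild type. Like Foxo3 it was highest on cholesterol replicate 1 and lowest on wild-type replicate 2, but its CETP groups overlapped. For Hif3a the nearest were the nuclear factor I gene Nfic (0.19), Lrrc4b (0.21) and Slc9a3r1 (0.22). Nfic measured 11.998, 10.93 and 12.19 on cholesterol, 10.98 and 10.73 on the CETP standard-diet label, and 10.40 and 10.49 in wild type. For Mapk8ip1 they were Tor1aip1 (0.13), Gps2 (0.15) and Epc1 (0.16). For Foxo4 they were a feature the fold table names GM10382 (0.13), Gps2 (0.22) and Mapk8ip1 itself.

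**Figure D3:**
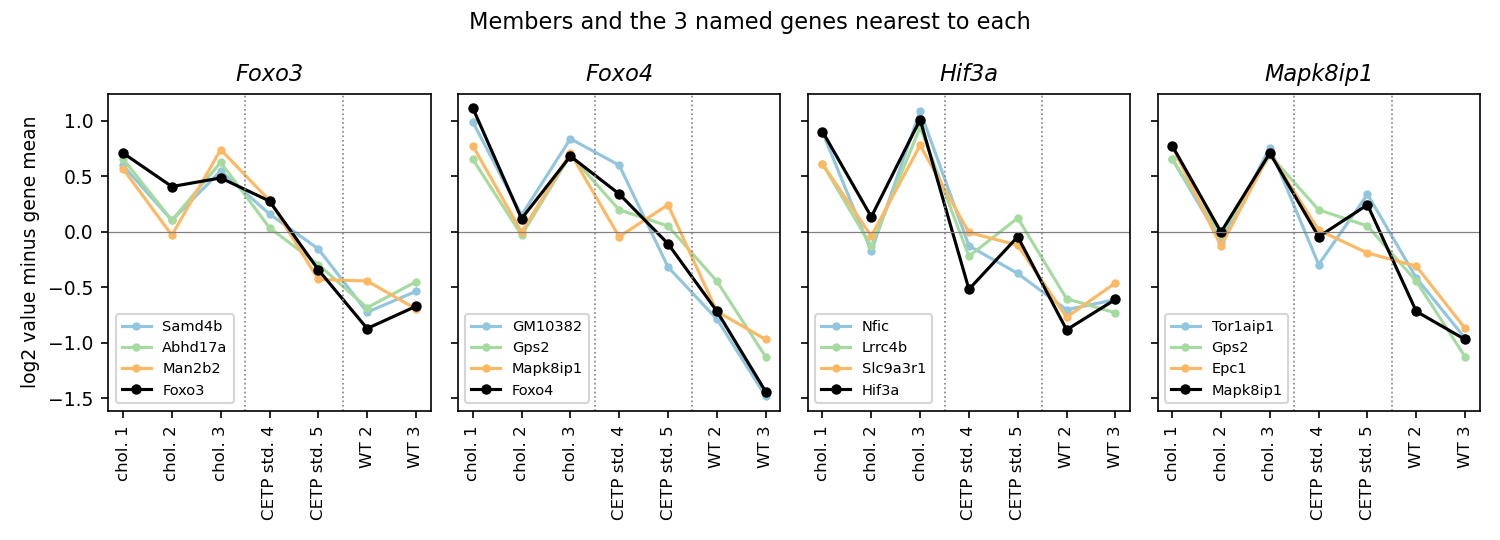
Log2 values minus each gene's mean (y axis) on the 7 arrays (x axis, groups parted by dotted lines) for each of the 4 genes (black) and the 3 named genes nearest to it (colours). Cholesterol replicate 2 is the lowest of the 3 cholesterol arrays in every black line, and the nearest genes lie 0.13 to 0.24 log2 units per array away.

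The rest of each pathway could be read only as far as genes were named. Of 22 genes of FoxO regulation 3 were named, and the one besides Foxo3 and Foxo4 was Usp7, a deubiquitinase that acts on FoxO4 in human cells. Usp7 measured 13.12, 13.58 and 13.16 on cholesterol, 13.75 and 14.38 on the CETP standard-diet label, and 14.58 and 13.52 in wild type. Its log2 difference from wild type was -0.76 ± 0.33 on cholesterol, opposite to that of the 2 FoxO genes. In the 3 comparisons 0 of the named genes of any pathway list passed the limma test, against 0.0% of all features.

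Of 24 FoxO target genes 5 were named, and 3 had a higher and 2 a lower mean on cholesterol than in wild type. Their median log2 difference was 0.15, against 0.03 for all named genes and -0.05 for all features. On cholesterol 51.9% of named genes and 43.6% of all features were higher than in wild type. Cited2, a cofactor that also dampens HIF activity, stood at 0.90 ± 0.62 and the transcriptional repressor gene Bcl6 at 0.75 ± 0.28. The autophagy gene Gabarapl1 stood at -0.36 ± 0.37 and Cdkn1a, which encodes the cell cycle inhibitor p21, at -0.27 ± 0.34. Cdkn1a was also the one named gene of 15 in the glucocorticoid list.

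HIF factors and their regulators had 5 named genes of 12, of which 3 were higher and 2 lower on cholesterol than in wild type, with a median of 0.09. The 3 higher genes include Hif3a itself, which was chosen with its levels known. For this list and the next, the share of all named genes that were higher was 51.9%, and of all features 43.6%. Hif1a, the main oxygen-regulated subunit, differed by -0.46 ± 0.30, against 1.43 for Hif3a. Hif1a measured 12.41, 12.88 and 12.01 on cholesterol, 12.80 and 13.37 on the CETP standard-diet label, and 12.71 and 13.09 in wild type, with overlapping groups. Vhl, which marks hydroxylated subunits for destruction, differed by -0.29 ± 0.32. Of 20 hypoxia targets 4 were named, 3 of them higher and 1 lower, with a median of 0.15. The lactate exporter gene Slc16a3 stood at 0.87 ± 0.32 but was under its control median on each of the 7 arrays. The carbonic anhydrase gene Car9 stood at 0.20 ± 0.33, Egln3, a prolyl hydroxylase above the control median on 1 of 7 arrays, at 0.09 ± 0.45 and the glycolytic enzyme gene Eno1 at -0.02 ± 0.21.

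JNK scaffolds and kinases had 2 named genes of 20. Map3k1, a kinase upstream of JNK, differed by -0.21 ± 0.28 on cholesterol and by 0.48 ± 0.31 on the CETP standard-diet label, each against wild type. Of 10 JNK targets and AP-1 genes 3 were named, with a median of 0.95 on cholesterol, all 3 above the wild-type mean. Of all named genes 51.9% were above it, and of all features 43.6%, so little can be read from 3 genes. Elk1, a transcription factor phosphorylated by JNK and related kinases, measured 11.67, 10.81 and 11.41 on cholesterol, 10.76 and 10.72 on the CETP standard-diet label, and 10.25 and 10.43 in wild type. Its 3 groups stood in the order of Foxo3 and Hif3a without overlap, with a difference of 0.95 ± 0.26 on cholesterol. Junb differed by 1.16 ± 0.43 and by 1.68 ± 0.47 on the CETP standard-diet label. Atf3, a stress-induced factor, differed by 0.09 ± 0.57.

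Markers and array controls moved in part with the 4 genes. The hybridization control level, the mean of 4 spiked-in transcripts, was 11.41, 11.21 and 11.77 on the cholesterol arrays, 11.02 and 11.22 on the CETP standard-diet arrays, and 10.996 and 10.80 on the wild-type arrays. It was highest on cholesterol and lowest in wild type, and within the cholesterol group replicate 2 was lowest, as for the 4 genes. With this level as a covariate, an alternative added after seeing the data, the differences from wild type on cholesterol were 0.74 for Hif3a, 0.69 for Mapk8ip1, 1.31 for Foxo4 and 1.51 for Foxo3. Between the CETP groups Foxo3 then differed by 0.69, Hif3a by 0.55, Foxo4 by 0.28 and Mapk8ip1 by 0.0097, and Hif3a on the standard-diet label differed from wild type by 0.19. The level itself differs between the groups, so the covariate and the groups cannot be fully told apart.

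Of 12 astrocyte markers 2 were named, the glutamate transporter gene Slc1a3 and Sox9, a glial transcription factor, and both exceeded the control median on each of the 7 arrays. Slc1a3 measured 13.61, 12.67 and 13.68 on cholesterol, 12.62 and 12.20 on the CETP standard-diet label, and 12.59 and 11.59 in wild type, with cholesterol replicate 2 again the lowest of its group. The mean of both markers was 13.55 to 14.49 on cholesterol, 13.45 to 13.65 on the CETP standard-diet label and 13.01 to 13.65 in wild type. In such bulk samples fewer cells of a type and less RNA per cell cannot be told apart. Microglial markers (10 of 13 named) averaged 7.97 to 8.83 on cholesterol, 8.21 and 11.42 on the CETP standard-diet label, and 7.46 and 7.92 in wild type. The high value belonged to replicate 4, where Foxo3 and Foxo4 were higher, and Hif3a and Mapk8ip1 lower, than in replicate 5.

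Endothelial markers (4 of 10 named) averaged 9.29 to 9.59 on cholesterol, 9.71 and 10.38 on the CETP standard-diet label, and 8.85 and 9.14 in wild type, and mural markers (3 of 9 named) 9.95 to 10.48, 10.06 and 10.52, and 9.47 and 9.64 in the same groups. Both averages were lowest on the wild-type arrays, like the 4 genes, and the mural averages of the CETP groups overlapped. Single markers differed from this, with Kdr at -0.04 ± 0.20 on cholesterol and Pdgfrb at -0.26 ± 0.28 on the CETP standard-diet label (log2 difference ± SE), each against wild type. The one named neuronal marker of 10, Camk2a, ran from 8.81 to 9.23 on cholesterol, with 8.04 and 9.04 on the CETP standard-diet label and 8.20 and 8.21 in wild type. Choroid plexus and ependymal markers (2 of 7 named) averaged 12.55 to 14.01, 13.73 and 14.10, and 13.54 and 13.86. None of the 10 oligodendrocyte markers was named. The part of these cell types and of the spike-in level in the differences of Foxo3, Foxo4, Hif3a and Mapk8ip1 was not tested.

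**Figure D4:**
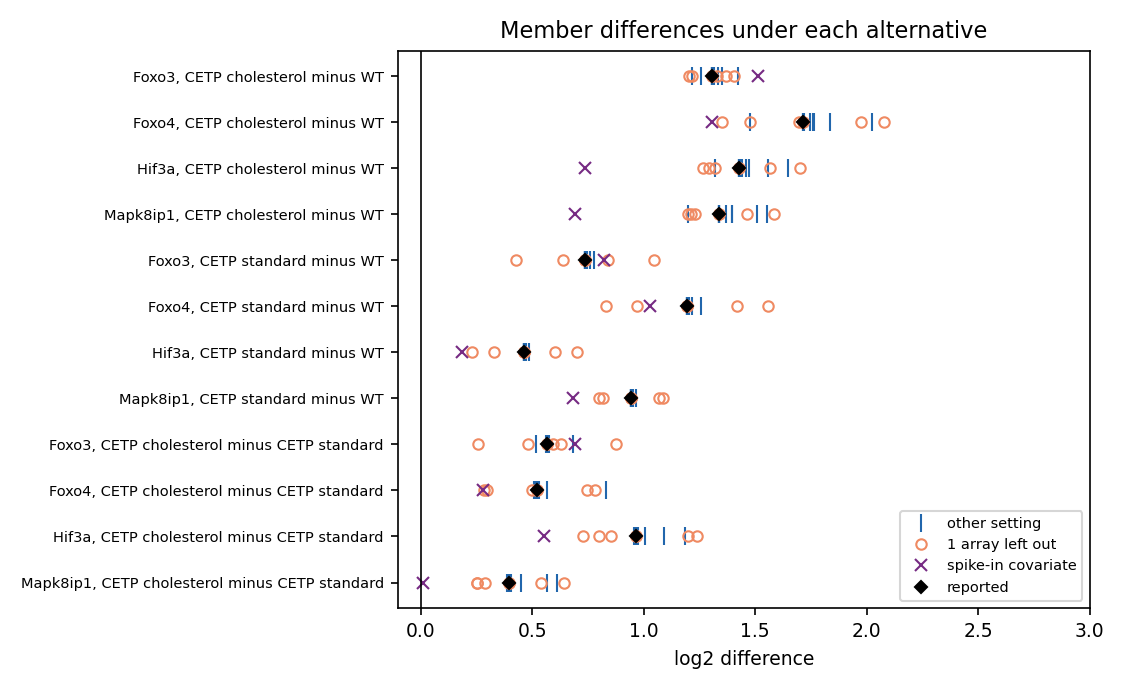
Log2 differences (x axis) of the 4 genes in the 3 comparisons (rows) as reported (diamonds), with 1 array left out (open circles), under the other settings (blue bars) and with the spike-in covariate (crosses). Every value is above 0, and the cross of Mapk8ip1 between the CETP groups is nearest to it at 0.0097.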

How the data were processed

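The values analysed are log2 values as deposited, with 1 value for each array and probe set. Per the labels' protocols, RNA was labelled with the Affymetrix Pico procedure from 10 ng of total RNA. For summarization and normalization, the method is not given in the sources used here. The authors' deposited fold table gives a signed fold as a score and, per the file headers, was exported from QIAGEN software. It was used for names, with symbols matched to RefSeq (GRCm38.p6, names only). Of 28846 entries, 22206 transcript clusters were kept, and the probe set with the highest mean was used per gene, leaving 22195 features.

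One limma model of 3 group means was fitted to all 7 arrays without covariates (limma 3.58.1, R 4.3.3) and tested on simulated data. Other steps used Python 3.11.15. The 4 genes, the lists and the tests were chosen with earlier results of these data known. Nearest genes were the 3 named genes with the lowest mean absolute distance of mean-centred values, and up to 4 genes per list were named by the largest difference between cholesterol and wild type.

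Alternatives were other normalizations, a filter on dim features, probe set averages, group medians, array weights, another prior, fits of 2 groups, blocks by replicate number and by first digit of the animal number, and leaving out each array.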

Additional observations from a re-analysis of the deposited data

How the results depend on the processing

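Of 209 alternative values of the 12 differences, 4 genes in 3 comparisons, 81 equalled the reported value within 0.001, most of them because the setting changes only the error or leaves out an array of the third group. The other 128 all kept a positive sign, and 120 of them moved by less than the SD between replicates. With the spike-in level as covariate, an alternative added after seeing the data, the values that moved by more were 0.74 for Hif3a and 0.69 for Mapk8ip1 (cholesterol against wild type), and 0.55 and 0.0097 (cholesterol against the CETP standard-diet label). The cause was not tested. With 1 array left out, differences on cholesterol against wild type ran from 1.20 to 1.40 for Foxo3, 1.35 to 2.08 for Foxo4, 1.26 to 1.70 for Hif3a and 1.20 to 1.59 for Mapk8ip1. On the standard-diet label against wild type they ran from 0.43 to 1.05, 0.83 to 1.56, 0.23 to 0.70 and 0.80 to 1.09, and between the CETP groups from 0.26 to 0.88, 0.28 to 0.78, 0.73 to 1.24 and 0.25 to 0.64 for the same genes. Features passing the limma test numbered 0 to 9 on the standard-diet label against wild type and 0 to 14 between the CETP groups, with the 9 and 14 obtained without CETP standard-diet replicate 5, where the lone array is assumed to vary like the other groups. The filter on dim features left out Foxo4. Replicate numbers 2 and 3 are shared by the cholesterol and wild-type arrays, and deviations of same-numbered arrays correlated at 0.01 and 0.04 across features. The numbers were not taken as pairs. With only 2 wild-type arrays their deviations mirror each other, so these correlations cannot show that pairing is absent. With replicate number as a block, the cholesterol differences from wild type were 1.22, 1.48, 1.32 and 1.20 for Foxo3, Foxo4, Hif3a and Mapk8ip1, and 7 features passed on 1 residual degree of freedom, against 0 without the block. Cholesterol replicate 1 has no wild-type array of its number, so these differences equal those without that array. They repeat that setting among the 128 values and are no separate check. Neither this block nor the first digit of the animal number could be fitted for the CETP standard-diet group, which shares none. Values near the negative control median limit what can be said of Foxo3 and Foxo4, and of Hif3a in wild type.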
